A study of Arabidopsis thaliana with 4 samples.

Results

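The 26S proteasome is the protease that degrades proteins tagged with ubiquitin, and in plants it removes the Aux/IAA repressors when auxin is perceived. Its core particle is a barrel of stacked rings in which alpha subunits form the gated ends and beta subunits line the chamber where proteins are cut. A regulatory particle sits on the core: its base holds a ring of ATPases (RPT subunits) that unfold the substrate, together with non-ATPase subunits that bind ubiquitin, and its lid carries the activity that removes ubiquitin chains. The genes followed here are those whose symbol starts with RPN or RPT and a digit, or with PAA to PAG or PBA to PBG and a digit, and whose probe set matched 1 gene. 17 proteasome genes met this, of 22746 probe sets tested. 12 encode the core particle (6 alpha and 6 beta subunits), 1 the ATPase ring, 2 the rest of the base and 2 the lid.

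The measurements come from 4 Affymetrix ATH1 arrays, which read messenger RNA with sets of short probes. Of these, 2 were hybridised with RNA of Atdi19-3 mutant seedlings and 2 with RNA of wild-type seedlings, all of ecotype Col-0. AtDi19-3 is a zinc finger transcription factor, and the mutant is a single T-DNA insertion line, so effects of the insertion and of anything else carried by that line cannot be told apart. Untreated seedlings of both genotypes grew on 1/2MS medium in white light at 22 °C, with 16 h of light and 8 h of darkness, and about 100 mg of tissue was harvested at 10 days. The labels call the 2 arrays of each genotype biological replicates. Whole seedlings were used, so fewer cells of a type and less RNA per cell cannot be told apart, and no probe set with 1 named gene was found for any of 21 tissue markers or for the AtDi19-3 gene, so neither the tissue nor the genotype could be checked on the arrays.

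How a gene was named matters for what its value can show. Only RPN12a was named by the platform annotation. The other 16 genes were named through the study's own sheet of genes higher in the mutant, of which a part was held here, and that sheet was drawn up from these same arrays. All 982 probe sets named only by that sheet had a log2 fold change above 0, so the direction of these 16 genes is fixed by how they were found and is given as a description. A further 11 loci, taken from a list of 26S proteasome loci written for this work, carry other symbols or none; 8 of them were named by the platform annotation, which does not depend on the mutant's values.

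The 4 arrays differed as a whole between the genotypes. On the Atdi19-3 arrays 14.1% and 13.5% of probe sets read over 4 on the deposited log2 scale, against 7.10% and 8.34% on the wild-type arrays. The spike-in controls, added in fixed amounts, had medians of 5.92 and 6.20 on the Atdi19-3 arrays and of 9.69 and 9.41 on the wild-type arrays. In 5 of 6 pairs of control probe sets for actin, GAPDH and ubiquitin, the 3′ signal exceeded the 5′ signal by less on both Atdi19-3 arrays than on both wild-type arrays; the 5′ ubiquitin set read 7.34 and 7.45 on the Atdi19-3 arrays and 3.04 and 3.41 on the wild-type arrays. The arrays correlated at 0.989 within Atdi19-3 and at 0.930 within the wild type, and at 0.831 to 0.855 between genotypes. The part of these differences in the results below was not tested. Below, a difference is Atdi19-3 minus wild type on the log2 scale, with its standard error (SE) and the Benjamini-Hochberg adjusted p of limma over all probe sets, called under 0.05. Where a wild-type array read under 3, the difference is given as a lower bound (at least) on the deposited scale. That mark concerns low signal only and takes no account of the spread between arrays, so a smaller difference is not excluded. Where both wild-type arrays held the same value, the pair adds no spread, so the SE and p can be too small. Whether identical values above 3 lie at a floor was not tested.

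All 17 genes read higher on both Atdi19-3 arrays than on both wild-type arrays, and 1 of them, PAD2, was called. Their median difference was 1.27, a fold of 2.41. Among all tested probe sets 3.16% were called higher and 28.5% read above the wild type without overlap, and the median difference was 0.00. Among the probe sets named only by the study's sheet the same shares were 26.1% and 98.9%, and the median was 1.36; the 16 genes named that way had a median of 1.38. Of the 6895 probe sets whose mean over the arrays was at least 3, a set that all 17 genes belong to, 9.49% were called higher, 64.4% read higher without overlap and the median was 0.44. The medians of the 17 genes were 4.93 and 4.91 on the Atdi19-3 arrays, against 3.11 and 3.61 on the wild-type arrays.

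**Figure D1:**
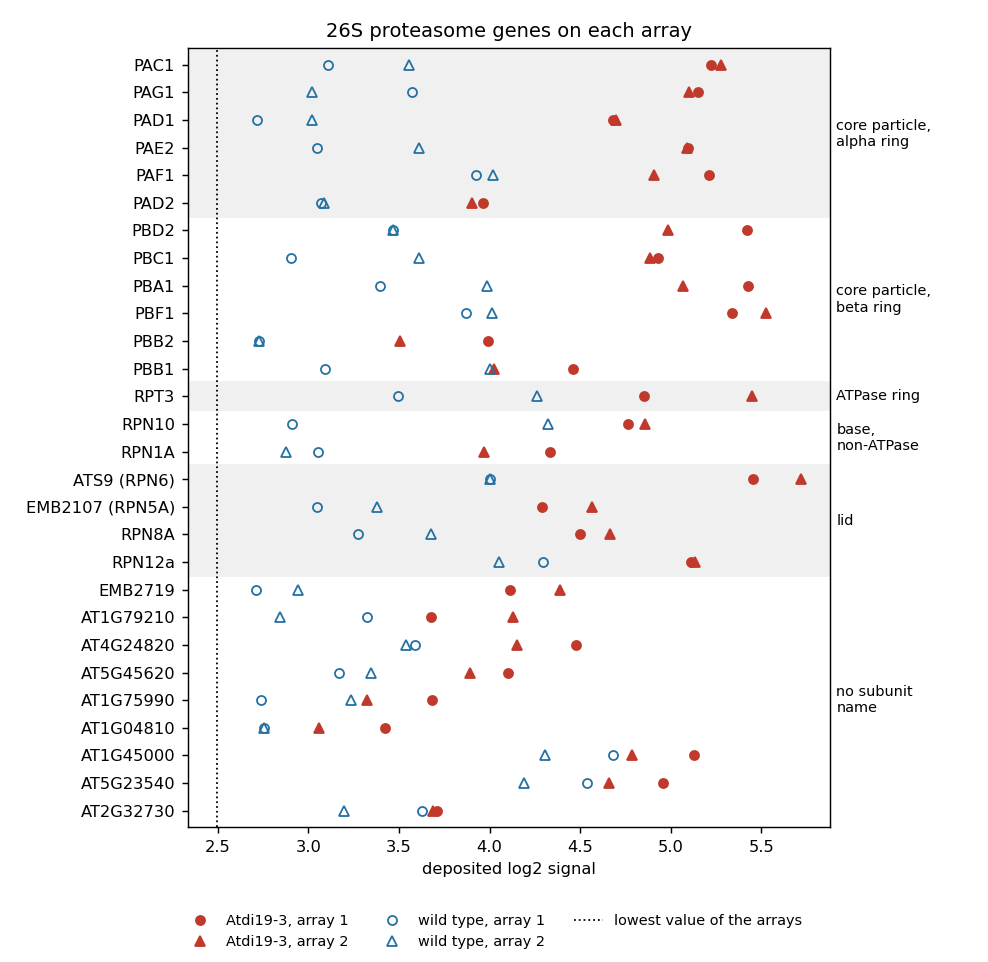
Deposited log2 signal (horizontal axis) of the 28 proteasome genes with a probe set of their own, with 1 row per gene grouped by place in the complex; filled red symbols are the 2 Atdi19-3 arrays, open blue symbols the 2 wild-type arrays, and the dotted line the lowest value on the arrays, 2.49. In every row both red symbols lie to the right of both blue ones, by as little as 0.02 for PBB1.

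In the alpha ring, which forms the gated entrance of the core, 4 of the 6 genes lay between 1.76 and 1.92 and the other 2 at 1.08 and 0.85. PAC1 read 5.22 and 5.27 in Atdi19-3 and 3.11 and 3.55 in the wild type, a difference of 1.92 (SE 0.20, adjusted p = 0.082). PAG1 read 5.15 and 5.10 in Atdi19-3 and 3.57 and 3.02 in the wild type, a difference of 1.83 (SE 0.25, adjusted p = 0.109). The wild-type arrays lay 0.45 apart for PAC1 and 0.55 apart for PAG1, while the Atdi19-3 arrays lay 0.05 apart for each gene. PAD1 read 4.68 and 4.70 in Atdi19-3 and 2.71 and 3.02 in the wild type, so its difference of 1.82 (SE 0.14, adjusted p = 0.0549) is a lower bound. PAE2 had the closest Atdi19-3 arrays of the 17 genes, 5.09 and 5.09, against 3.05 and 3.61 in the wild type, a difference of 1.76 (SE 0.25, adjusted p = 0.116). These 4 genes differed by more than 3-fold between the genotypes, and none of them was called.

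PAF1 and PAD2 complete the alpha subunits of the rule. PAF1 read 5.21 and 4.91 in Atdi19-3 and 3.93 and 4.02 in the wild type, a difference of 1.08 (SE 0.14, adjusted p = 0.105). PAD2, the close paralog of PAD1, read 3.96 and 3.90 in Atdi19-3 and 3.07 and 3.09 in the wild type, a difference of 0.85 (SE 0.03, adjusted p = 0.0272). PAD2 rose 1.80-fold, the smallest change of the alpha genes of the rule, and was the only gene called. Its arrays differed by 0.06 within Atdi19-3 and by 0.02 within the wild type. Its adjusted p was between 0.0684 and 0.0784 when any 1 array was left out, so the call rests on all 4 arrays. The array's probes were not mapped here, so signal shared between paralogs such as PAD1 and PAD2, or PBB1 and PBB2, was not tested.

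In the beta ring none of the 6 genes was called. The Atdi19-3 arrays lay a median of 0.40 apart over these genes and the wild-type arrays 0.37, against 0.05 and 0.38 in the alpha ring. PBA1, PBB1 and PBB2 encode catalytic subunits, PBA1 the caspase-like and the PBB pair the trypsin-like activity. PBA1 read 5.43 and 5.06 in Atdi19-3 and 3.39 and 3.99 in the wild type, a difference of 1.56 (SE 0.31, adjusted p = 0.175). PBB1 read 4.46 and 4.03 in Atdi19-3 and 3.09 and 4.004 in the wild type, a difference of 0.70 (SE 0.45, adjusted p = 0.584). The PBB1 groups were separated by 0.02, less than the distance between arrays of either genotype, and its difference fell between 0.24 and 1.15 with 1 array left out. PBB2 read 3.99 and 3.50 in Atdi19-3 and 2.73 on both wild-type arrays, so its difference of 1.02 (SE 0.22, adjusted p = 0.192) is a lower bound.

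PBC1, PBD2 and PBF1 encode beta subunits without catalytic activity. PBC1 read 4.93 and 4.88 in Atdi19-3 and 2.90 and 3.61 in the wild type, a difference of at least 1.65 (SE 0.32, adjusted p = 0.167). PBD2 read 5.42 and 4.99 in Atdi19-3 and 3.47 on both wild-type arrays, a difference of 1.74 (SE 0.20, adjusted p = 0.0883). PBF1 read 5.34 and 5.52 in Atdi19-3 and 3.87 and 4.01 in the wild type, a difference of 1.49 (SE 0.10, adjusted p = 0.0504). PBF1 thus stood just outside the threshold, and it was called (adjusted p = 0.0491) when limma's prior was allowed to follow the mean signal. It was also called with filters on dim probe sets and with spike-in centring, which raised the number of calls over all probe sets. PBF1 was not called after quantile normalization (0.61, limma adjusted p = 0.117) or with the replicate numbers as a block (limma adjusted p = 0.138).

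In the regulatory particle the 5 genes of the rule lay in a narrower band, between 0.95 and 1.27, and none was called. Loci without a subunit name were not placed in the complex, so the band covers only genes found by symbol. RPT3, an ATPase, is the single ring member that was found by symbol with a probe set of its own. It read 4.85 and 5.45 in Atdi19-3 and 3.49 and 4.26 in the wild type, a difference of 1.27 (SE 0.44, adjusted p = 0.358). RPN1A, a large base subunit that docks ubiquitin shuttle proteins, read 4.33 and 3.97 in Atdi19-3 and 3.05 and 2.88 in the wild type, a difference of at least 1.19 (SE 0.18, adjusted p = 0.123). RPN10, a ubiquitin receptor whose loss makes Arabidopsis hypersensitive to abscisic acid, read 4.76 and 4.86 in Atdi19-3 and 2.91 and 4.32 in the wild type. RPN10 had the widest wild-type pair of the 17 genes, 1.41 apart. Its difference of 1.19 (SE 0.64, adjusted p = 0.584) ranged between 0.49 and 1.90 with 1 array left out. No lower bound is therefore given for RPN10, although 1 wild-type array read under 3.

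Of the genes of the rule, RPN8A and RPN12a belong to the lid. RPN8A, the partner of the deubiquitinating subunit, read 4.50 and 4.67 in Atdi19-3 and 3.28 and 3.68 in the wild type, a difference of 1.1045 (SE 0.20, adjusted p = 0.15). RPN12a, a lid subunit known from the altered cytokinin response of its Arabidopsis mutant, read 5.11 and 5.13 in Atdi19-3 and 4.29 and 4.05 in the wild type, a difference of 0.95 (SE 0.11, adjusted p = 0.0888). RPN12a is the only gene of the 17 whose direction was not fixed by its naming, and it had the smallest difference of the regulatory genes of the rule. A pair of further lid genes carries other symbols: ATS9, listed as RPN6, read 5.45 and 5.72 in Atdi19-3 and 4.0035 on both wild-type arrays, a difference of 1.58 (SE 0.12, adjusted p = 0.0545). EMB2107, listed as RPN5A, read 4.29 and 4.57 in Atdi19-3 and 3.05 and 3.38 in the wild type, a difference of 1.21 (SE 0.19, adjusted p = 0.131). Both were named only by the study's sheet.

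Set side by side, the median difference was 1.60 for the 12 core genes, 1.79 in the alpha ring and 1.52 in the beta ring, and 1.27 for RPT3, 1.19 for the rest of the base and 1.03 for the 2 lid genes of the rule. With ATS9 and EMB2107 the lid median was 1.16. The ranges overlapped: core genes of the rule ran from 0.70 to 1.92, and its regulatory genes from 0.95 to 1.27. Loci without a subunit name, given below, are in none of these groups. All genes in the groups but RPN12a were named only by the study's sheet. At a fold over 2 and an unadjusted p of 0.05 or less, 10 of 12 core genes and 2 of 5 regulatory genes passed, 12 in all; 66.2% of the probe sets named only by the study's sheet and 6.34% of all tested probe sets did. The difference between core and regulatory particle was not tested.

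**Figure D2:**
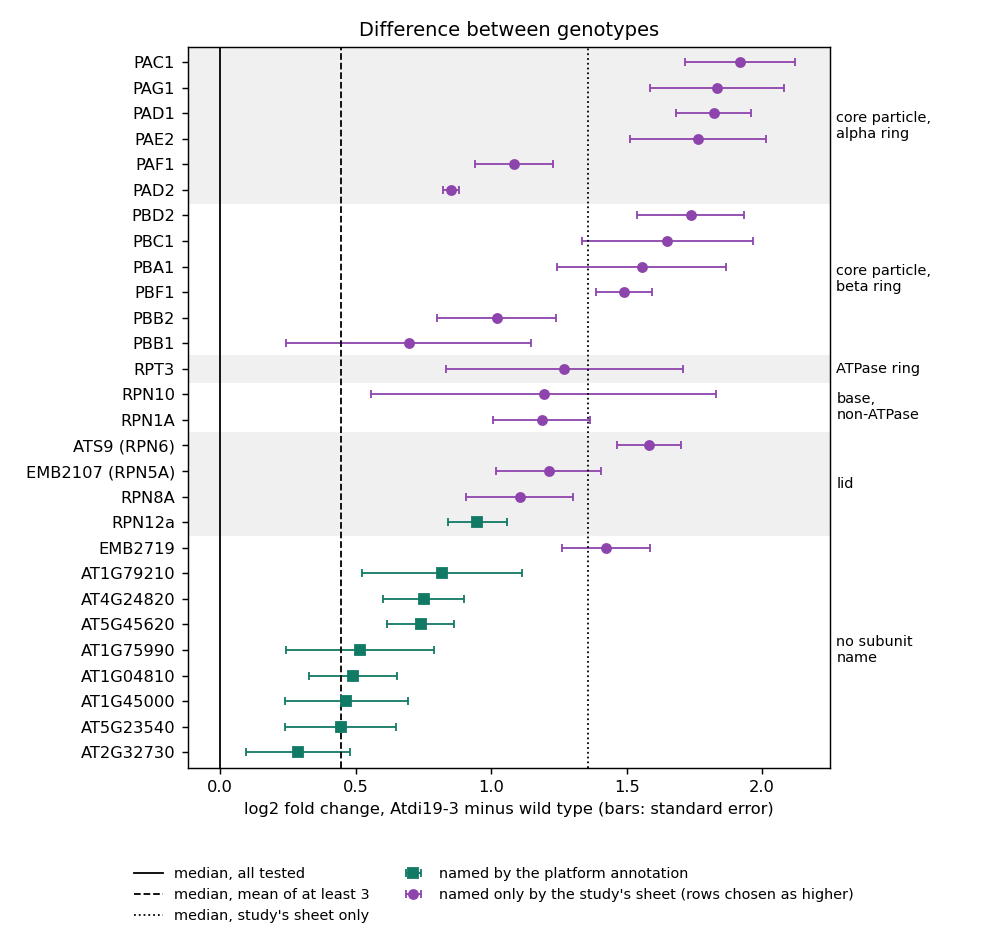
Log2 fold change (horizontal axis, Atdi19-3 minus wild type, bars ± SE over 2 arrays per genotype) of the 28 proteasome genes; squares were named by the platform annotation, circles only by the study's sheet, and vertical lines mark the medians of all tested probe sets (0.00), of those with a mean of at least 3 (0.44) and of those named only by the sheet (1.36). The 9 squares lie between 0.29 and 0.95 and the 19 circles between 0.70 and 1.92.

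The 9 proteasome loci named by the platform annotation, RPN12a among them, give the view that does not depend on the sheet, and there the differences were smaller. All 9 read higher in Atdi19-3 without overlap, with a median of 0.52, and 0 were called, against 2.19% called higher, 24.2% higher without overlap and a median of 0.00 among the 13513 single-gene probe sets of that annotation. By limma's unadjusted p under 0.05, 3 of the 9 passed. In either direction, 2159 of those 13513 probe sets passed, and 3033 of the 6895 with a mean of at least 3. Of the 9, 8 had a mean of at least 3 (all but AT1G04810), with a median of 0.63. Over all probe sets with such a mean it was 0.44, and 64.4% of these read higher without overlap. AT1G75990, with a wild-type mean of 2.99, passes that filter only through its Atdi19-3 arrays, so the comparison lends no support. The 19 genes named only by the sheet had a median of 1.42.

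Of these 9 loci, AT4G24820 and AT5G45620 are described as proteasome genes by the study, without a subunit name. AT4G24820 read 4.48 and 4.15 in Atdi19-3 and 3.59 and 3.54 in the wild type, a difference of 0.75 (SE 0.15, adjusted p = 0.173). AT5G45620, which carries a PCI domain as several lid subunits do, read 4.10 and 3.89 in Atdi19-3 and 3.17 and 3.35 in the wild type, a difference of 0.74 (SE 0.12, adjusted p = 0.14). These were the loci with the smallest p after RPN12a. The study's descriptions cover genes it listed from these same arrays, so that order lends no support. EMB2719, described likewise but named only by the sheet, read 4.11 and 4.39 in Atdi19-3 and 2.71 and 2.94 in the wild type, a difference of at least 1.42 (SE 0.16, adjusted p = 0.0884).

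The other 6 loci have no annotation in the sources used here and are given by locus alone. AT1G79210 read 3.68 and 4.13 in Atdi19-3 and 3.32 and 2.84 in the wild type, a difference of at least 0.82 (adjusted p = 0.382). AT1G75990 differed by at least 0.52 and AT1G04810 by at least 0.49 (adjusted p = 0.584 and 0.343). Those loci were dim, with at least 1 wild-type array under 3. AT1G45000 read 5.13 and 4.79 in Atdi19-3 and 4.68 and 4.31 in the wild type, a difference of 0.46 (adjusted p = 0.545). AT5G23540 read 4.96 and 4.66 in Atdi19-3 and 4.54 and 4.19 in the wild type, a difference of 0.44 (adjusted p = 0.512). AT2G32730 read 3.71 and 3.69 in Atdi19-3 and 3.63 and 3.20 in the wild type, a difference of 0.29 (adjusted p = 0.584).

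**Figure D3:**
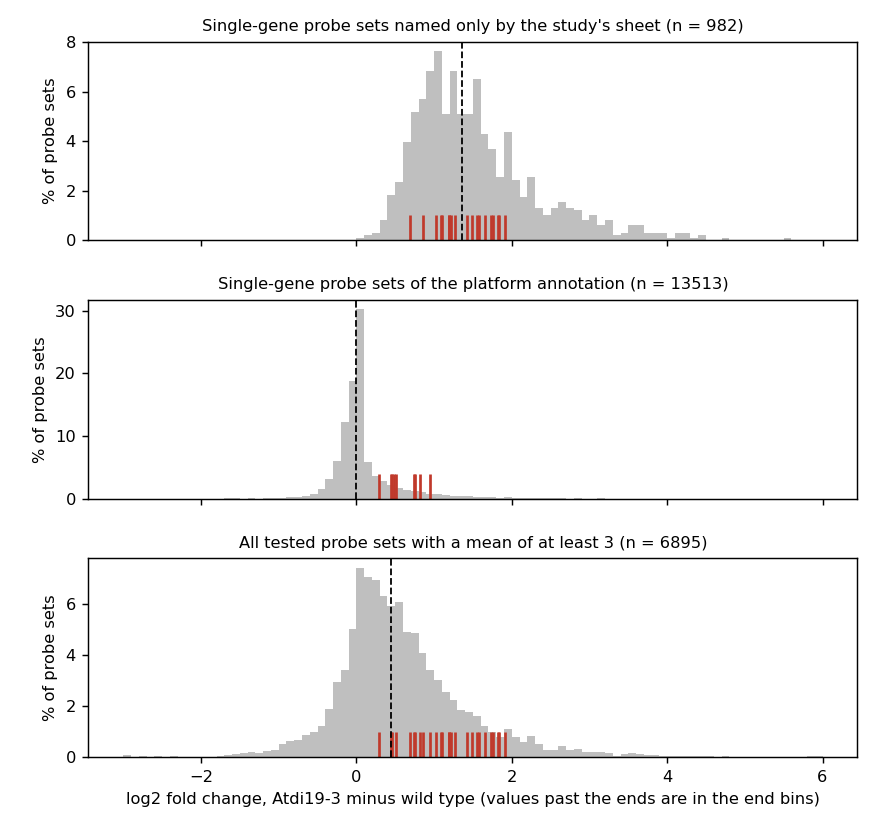
Share of probe sets (vertical axis, percent) by log2 fold change, Atdi19-3 minus wild type (horizontal axis, bins of 0.1), for probe sets named only by the study's sheet (top), those of the platform annotation (middle) and those with a mean of at least 3 (bottom); dashed lines are the medians (1.36, 0.00 and 0.44) and red ticks the proteasome genes belonging to each panel's naming source (19 and 9), and in the bottom panel the 27 with such a mean. The 19 ticks of the top panel straddle its median, while the 9 of the middle panel lie to the right of theirs.

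Another 4 probe sets match several proteasome genes and name none of them singly. The probe set shared by PAA2 and another alpha locus read 4.31 and 4.32 in Atdi19-3 and 2.83 and 2.68 in the wild type, a difference of at least 1.56 (SE 0.07, adjusted p = 0.0315). The probe set shared by PBE1, of the subunit with chymotrypsin-like activity, and a further locus read 5.95 and 6.13 in Atdi19-3 and 3.80 and 4.07 in the wild type, a difference of 2.104 (SE 0.15, adjusted p = 0.0496). These 2 were called, and both stand in the core; 26.1% of the single-gene probe sets named by the sheet were called higher. After quantile normalization neither was called, with 1.23 (adjusted p = 0.0572) for the PAA2 probe set and 1.25 (adjusted p = 0.0686) for the PBE1 probe set. The probe sets shared by RPT1A and by RPT6A with a further locus, both of the ATPase ring, were not called: RPT1A read 4.64 and 4.82 in Atdi19-3 and 3.81 and 3.34 in the wild type (difference 1.16, adjusted p = 0.17), and RPT6A read 4.24 and 3.84 in Atdi19-3 and 2.68 and 3.52 in the wild type (difference of at least 0.94, adjusted p = 0.489). All 4 were named only by the study's sheet.

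Since the distribution of the deposited values differed between the genotypes, the differences were also computed after quantile normalization, which gives all 4 arrays the same distribution. The median of the 17 genes was then 0.78, with all 17 above 0, and 13 read higher without overlap. Of the 982 probe sets named only by the sheet, 931 were above 0 and 806 read higher without overlap. Of all 22746 tested probe sets, 11150 were above 0 and 8468 read higher without overlap. The core particle kept a median of 0.90, RPT3 a difference of 0.46, the other base genes 0.69 and the lid 0.25, beside 0.77 for all probe sets named only by the sheet and 0.00 for all tested probe sets. PAD1 differed most, by 1.38, and PAD2 was again the one gene called (0.45, adjusted p = 0.0303). RPN12a differed by 0.05 (adjusted p = 0.933), with 4.65 and 4.68 in Atdi19-3 and 4.86 and 4.37 in the wild type after normalization, so its groups then overlapped. The median of the 9 loci of the platform annotation was 0.07, with 6 above 0, and AT1G45000 (-0.43), AT5G23540 (-0.45) and AT2G32730 (-0.23) turned negative. Among the 13513 single-gene probe sets of that annotation, 6332 were above 0. On the values centred on the spike-in controls, all probe sets moved up by 3.49 in Atdi19-3. All 17 genes were then called, as were 22742 of the 22746 tested probe sets.

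**Figure D4:**
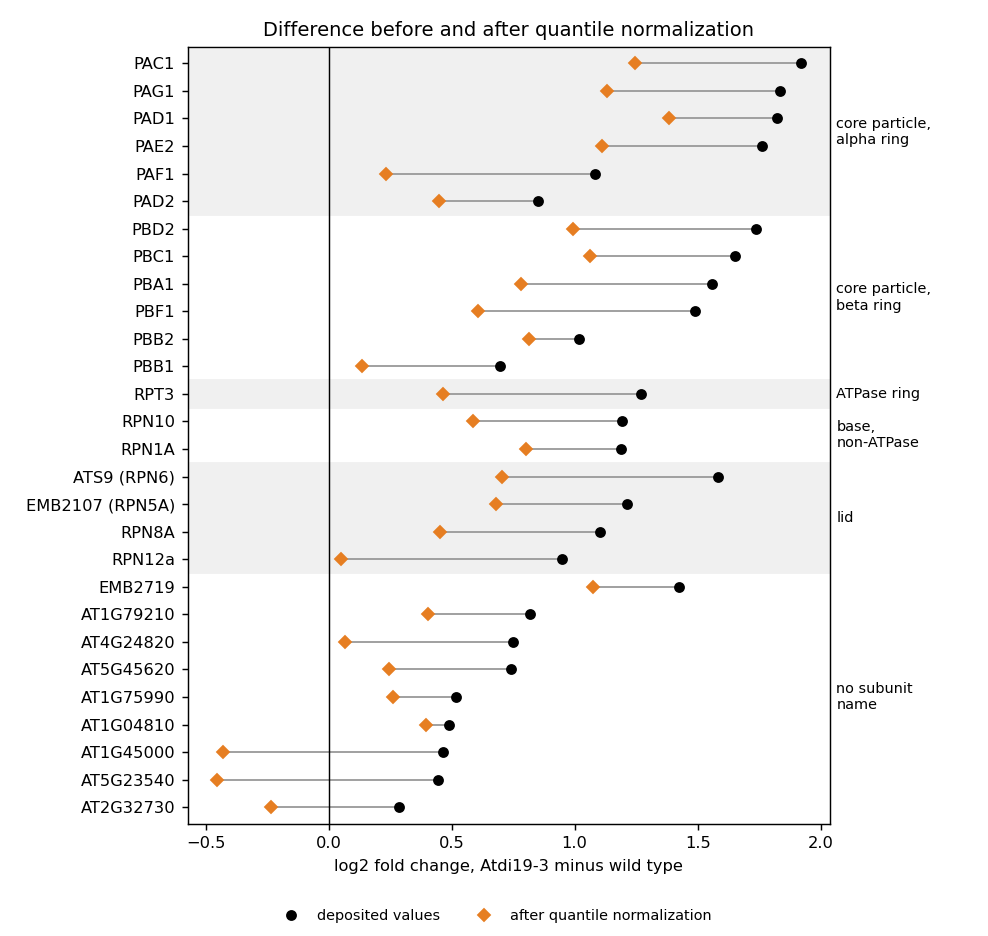
Log2 fold change (horizontal axis, Atdi19-3 minus wild type) of the 28 proteasome genes on the deposited values (black circles) and after quantile normalization (orange diamonds), joined by a line for each gene. Every diamond lies left of its circle; 3 loci without a subunit name (AT1G45000, AT5G23540 and AT2G32730) cross 0.

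The 2 Atdi19-3 arrays differed by a median of 0.17 over the 17 genes and the 2 wild-type arrays by 0.40, against 0.16 and 0.24 over the probe sets with a mean of at least 3, and 0.03 and 0.11 over all tested probe sets, of which 65.02% read under 3 on both wild-type arrays. In 12 of 17 genes wild-type replicate 1 read lower than wild-type replicate 2, as it did in 552 of the 982 probe sets named only by the sheet and in 3858 of the 6895 with a mean of at least 3. A wild-type array read under 3 for 5 of the genes (PAD1, PBB2, PBC1, RPN1A and RPN10), and no Atdi19-3 array did. With 2 arrays per genotype an exact permutation test cannot give a p under 0.33 for a single gene, and calls here rest on limma's variance model.

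Genes that feed the proteasome were listed as context. Of 10 loci for shuttle receptors and CDC48, 3 had a named probe set, all through the study's sheet, and 2 were called, beside 26.1% called higher among all probe sets named only by that sheet. CDC48, the ATPase that extracts ubiquitinated proteins and passes them to the proteasome, read 6.37 and 6.43 in Atdi19-3 and 4.92 on both wild-type arrays, a rise of 1.48 (SE 0.03, adjusted p = 0.0199). AT3G13235, a DDI1-type shuttle protein, read 4.29 and 4.11 in Atdi19-3 and 2.68 on both wild-type arrays, a rise of at least 1.52 (SE 0.08, adjusted p = 0.039). For both called genes the wild-type arrays held the same value, so the wild-type pair added no spread to their SE. RAD23D, which was not called, differed by 1.08 (adjusted p = 0.224). After quantile normalization CDC48 differed by 0.60 and was no longer called (adjusted p = 0.137), while AT3G13235 was still called (1.22, adjusted p = 0.0405). AT1G67250 was named by the platform annotation. It is described as a UMP1-type factor, which helps assemble the core particle, and read 5.47 and 5.23 in Atdi19-3 and 2.72 and 3.51 in the wild type, a difference of at least 2.24 (SE 0.37, adjusted p = 0.138). Of 7 assembly and accessory loci, 3 had a named probe set and 0 were called by limma, with 1 at an unadjusted p under 0.05. Among the 13513 single-gene probe sets of the platform annotation, which named all 3, 2.19% were called higher and 2159 had such a p. AT3G53970, described as a probable proteasome inhibitor, differed by at least 0.35 (adjusted p = 0.584), and AT2G26780 by 0.00.

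Of 26 loci for ubiquitin and its conjugation, 7 had a named probe set, 5 of them through the study's sheet, and 2 of these 5 were called, again beside 26.1% called higher among sheet-named probe sets. UBC1, a ubiquitin-conjugating enzyme, read 6.46 and 6.44 in Atdi19-3 and 3.70 and 4.08 in the wild type, a rise of 2.56 (SE 0.17, adjusted p = 0.0478). SKP1, the adaptor of SCF ubiquitin ligases, read 6.34 and 6.16 in Atdi19-3 and 4.45 and 4.62 in the wild type, a rise of 1.71 (SE 0.11, adjusted p = 0.047). After quantile normalization neither was called: UBC1 differed by 1.75 (adjusted p = 0.0537) and SKP1 by 0.82 (adjusted p = 0.0949). ATUBA1, ASK2 and AXR1 differed by 1.21, 1.04 and 0.90 and were not called. The 2 genes of the platform annotation, named here after their values were seen, were UBC28, a conjugating enzyme with a difference of 2.31 (adjusted p = 0.0837), and CUL4, a ligase scaffold with 0.50 (adjusted p = 0.581). The COP9 signalosome, which resembles the lid in its subunits, was represented by CSN5B alone, which read 2.67 and 2.65 in Atdi19-3 and 2.68 and 3.49 in the wild type (difference -0.42, adjusted p = 0.584); 3 of these 4 values were under 3.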

How the data were processed

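The authors extracted total RNA, made biotin-labelled amplified RNA from 500 ng (3′ in vitro transcription) and hybridised 1 array per sample; the submitters' processing notes name GCRMA and R 3.4.0. The deposited log2 values, background-corrected and normalized, cover 22810 probe sets; scans were not analysed here. The number of arrays limits the precision.

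After leaving out 64 control probe sets, 22746 were fitted in R 4.3.3 with limma 3.58.1 (lmFit, eBayes), Atdi19-3 against wild type, without covariate or filter, with Benjamini-Hochberg adjustment over all. The fit was tested on simulated data. limma's prior was worth 0.48 degrees of freedom.

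The platform annotation named 1 gene for 13513 probe sets; 982 more came from the held part of the study's gene sheet, whose fold changes and p-values were not used. No set test was run. The proteasome genes and lists were chosen with earlier results of these data known. Every gene of the rule is named, and of the other lists the called genes or the 2 with the smallest p; the rest were chosen later. Same-numbered arrays of the genotypes did not deviate together. Each array was left out in turn; quantile normalization, spike-in centring, filters on dim probe sets, a trended prior, a fold rule and a replicate block were tried.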

Additional observations from a re-analysis of the deposited data

How the results depend on the processing

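The replicate numbers did not pair the arrays (correlation of same-numbered deviations 0.017), and a fit with the replicate block called 0 of 22746 probe sets and 0 of the 17 proteasome genes. Over all probe sets 855 were called (718 higher, 137 lower), against 428 after quantile normalization (270 higher, 158 lower), 22742 with spike-in centring, 1935 of 3020 with only probe sets over 4 on at least 2 arrays, 2563 of 6895 with a mean of at least 3 (a filter chosen after the data were seen) and 1524 by the rule on fold and unadjusted p. Without either Atdi19-3 array 0 were called, so no gene named here was called then. The count was 3370 (723 higher, 2647 lower) without wild-type replicate 1, and 3654 (886 higher, 2768 lower) without wild-type replicate 2. Of the 17 genes 1 was called; 17 were with spike-in centring, 12 over the filter at 4, 14 over the filter on the mean, 12 by the fold rule and 2 with the trended prior. With 1 array left out the count was between 0 and 6: it was 0 without either Atdi19-3 array, and 6 without either wild-type array (PAC1, PAD1, PAE2, PAG1, PBC1 and RPN12a, PAD2 being lost). Of the 17 genes, 14 pass the filter at 4. RPN12a read over 4 on all 4 arrays, and the others of these pass only through the genotype where they are high. PAD1, PBB2 and RPN1A, with wild-type means of 2.87, 2.73 and 2.96, likewise pass the filter on the mean only through their Atdi19-3 arrays. So does AT1G75990 of the platform annotation, with a wild-type mean of 2.99. Counts and medians over either filter therefore lend no support, here or for the 9 loci below. Of the 9 loci of the platform annotation 0 were called, 9 with spike-in centring, 2 over the filter at 4, 3 over the filter on the mean and 0 to 2 with 1 array left out. Their median of 0.52 was 0.0685 after quantile normalization and 4.01 with spike-in centring, and 0.34 to 0.67 with 1 array left out. The medians after quantile normalization and with spike-in centring were 0.90 and 5.09 for the core particle, 0.46 and 4.76 for RPT3, 0.69 and 4.68 for the other base genes, and 0.25 and 4.52 for the lid. After quantile normalization AT1G45000 (-0.43), AT2G32730 (-0.23) and AT5G23540 (-0.45) changed sign. Cause was not tested beyond the shift of 3.49 that spike-in centring adds to every probe set. Low signal limits these values: 65.02% of probe sets read under 3 on both wild-type arrays.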

Other observations

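Symbols built like those of proteasome subunits also belonged to 4 other genes, counted apart here and named only by the study's sheet. PAB2, PAB4 and PAB8 encode poly(A)-binding proteins, which coat the tails of messenger RNAs, and PAA1 encodes a copper-transporting ATPase of the chloroplast. PAB8 read 5.23 and 5.34 in Atdi19-3 and 2.95 and 3.22 in the wild type, a rise of at least 2.20 (SE 0.13, limma adjusted p = 0.0418), and was not called after quantile normalization (1.62, limma adjusted p = 0.0927). PAB2 read 6.56 and 6.33 in Atdi19-3 and 4.09 and 3.10 in the wild type, a difference of 2.85 that was not called (limma adjusted p = 0.132). PAB4 and PAA1 differed by 1.41 and by at least 0.87 and were not called either. The 4 genes had a median difference of 1.80, beside 1.36 for all probe sets named only by the sheet.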
